A study of Mus musculus with 4 samples.

Results

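The genes described here are 38 genes of DNA replication and nucleotide synthesis, chosen by symbol, among 17008 genes with a read in any of 4 RNA sequencing libraries of mouse macrophages. Each library is 1 group, and all animals were C57BL/6J mice labelled as 6 to 8 weeks old. Normal BM and Normal spleen are macrophages sorted at day 0 from bone marrow and spleen of mice without leukaemia. T-ALL BM and T-ALL spleen, which the labels call leukaemia-associated macrophages, were sorted at day 21 after GFP+ T cell acute lymphoblastic leukaemia (T-ALL) cells had been transplanted into recipients that were not irradiated, so the hosts kept their own marrow. The comparison in the study's design is between macrophages in leukaemia and in homeostasis. The sources used here do not give the lesion that drives the leukaemia, the sort markers, or the sex and number of mice behind a library.

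Cells copy their genome once per division. In G1, the origin recognition complex, Cdc6 and Cdt1 load the Mcm2 to Mcm7 helicase on origins, and in S phase Cdc45 and the GINS complex turn it on, after which primase, polymerases, the Pcna clamp and its loader make the new strands, and Fen1 and ligase join the lagging strand. Ribonucleotide reductase, thymidylate synthase and thymidine kinase supply the deoxynucleotides, and chromatin assembly factor 1 packs the daughter strands into nucleosomes. Most tissue macrophages rest in G0, whereas precursor cells of the bone marrow and leukaemic T cells divide.

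Transcription of many of these genes at the G1/S boundary is known to depend on E2F factors. The bases before the gene start were therefore read from RefSeq promoters on GRCm38.p6, which covered 32 of the 38 genes with 37 promoters. Gins1, Gins2, Mcm4, Pole, Prim2 and Rfc2 had no entry. The promoters below show 2 helicase subunits and a polymerase subunit that hold an E2F word, and Mcm2, a helicase subunit that does not. Each is given 5′ to 3′ on the strand of its gene, with the matched E2F words in capitals. They lie at chr8:75109259-75109508 on the + strand (Mcm5, NCBI Gene ID 17218), chr1:128359706-128359955 on the - strand (Mcm6, 17219), chrX:93632156-93632405 on the - strand (Pola1, 18968) and chr6:88898781-88899030 on the - strand (Mcm2, 17216).
Mcm5: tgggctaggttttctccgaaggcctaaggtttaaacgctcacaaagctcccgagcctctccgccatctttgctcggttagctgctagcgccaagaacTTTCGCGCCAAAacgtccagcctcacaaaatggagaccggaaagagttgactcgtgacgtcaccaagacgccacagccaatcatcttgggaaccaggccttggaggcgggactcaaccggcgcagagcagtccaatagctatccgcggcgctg
Mcm6: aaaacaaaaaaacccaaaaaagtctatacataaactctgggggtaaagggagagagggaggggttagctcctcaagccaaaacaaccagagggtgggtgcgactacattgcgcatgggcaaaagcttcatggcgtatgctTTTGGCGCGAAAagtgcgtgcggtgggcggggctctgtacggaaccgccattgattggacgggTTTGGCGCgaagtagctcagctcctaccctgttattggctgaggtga
Pola1: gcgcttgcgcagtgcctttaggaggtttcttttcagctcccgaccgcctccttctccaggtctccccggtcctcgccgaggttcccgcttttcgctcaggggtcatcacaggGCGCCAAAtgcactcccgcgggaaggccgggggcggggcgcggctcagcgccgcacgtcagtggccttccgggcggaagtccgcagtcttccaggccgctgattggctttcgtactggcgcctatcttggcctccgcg
Mcm2: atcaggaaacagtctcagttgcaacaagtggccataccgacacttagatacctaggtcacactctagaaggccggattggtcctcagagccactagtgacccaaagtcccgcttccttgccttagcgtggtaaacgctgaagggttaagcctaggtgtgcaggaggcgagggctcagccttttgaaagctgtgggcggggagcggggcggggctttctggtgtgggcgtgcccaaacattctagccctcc

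The E2F words searched were TTTCCCGC, TTTCGCGC, TTTGCCGC and TTTGGCGC on both strands of the 250 bases before the start. They occurred in 8 of 37 member promoters (21.6%), against 611 of 32851 promoters of the table (1.86%) and 3.39% of the promoters of genes with 10 CPM or more in any library. Mcm5 held 2 matches and Mcm6 held 3, and in each a pair overlapped as a near palindrome, visible as the 12-base capital run. The other members with a word were Orc1, Cdc6, Mcm7, Gins3 and Rfc3. The word CCAAT, on both strands, is the core of the site of nuclear factor Y. It was in 56.8% of member promoters, 33.8% of all and 35.3% of those of genes with 10 CPM or more in any library. These matches describe letters only, and binding was not measured.

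Before the results, 3 facts of the libraries bear on all of them. Library totals, in units of 1000 uniquely mapped reads, ran from 8979 to 9810, so that 1 read was worth 0.101 to 0.112 CPM (reads relative to the library's TMM-scaled total). All 38 genes had reads in all 4 libraries, between 40 and 5924. Macrophage markers were present throughout, with none of 10 at 0 and summed levels of 2869 to 8179 CPM. Lyz2 alone made up 2572 of 3552 CPM in normal bone marrow and 5494 of 8179 CPM in T-ALL bone marrow. From normal bone marrow to normal spleen, 8 of the 10 were called higher (at least 2-fold), and Lyz2 and Itgam lower. Of all measured genes, 16.1% were called higher and 14.0% lower in that comparison. The sums therefore hide opposite differences of single markers. The sums of the 10 markers of red pulp and island macrophages differed more between libraries. They summed to 464 CPM in normal bone marrow, 3057 in T-ALL bone marrow, 8871 in normal spleen and 4930 in T-ALL spleen. Markers of other cells were also present. The 11 neutrophil precursor markers summed to 37193 CPM in normal bone marrow, 19806 in T-ALL bone marrow, 409 in normal spleen and 155 in T-ALL spleen. The 14 T cell markers summed to 218, 829, 1331 and 3785 CPM in the same order. Sex-linked transcripts separated the libraries too. Reads of the Y-linked Ddx3y numbered 0 in normal bone marrow and in normal spleen, and its level was 93.8 CPM in the T-ALL bone marrow library and 57.6 in the T-ALL spleen library. Xist was at 861, 849, 0.644 and 416 CPM in normal bone marrow, normal spleen, T-ALL bone marrow and T-ALL spleen, so the T-ALL spleen library held both. In such bulk RNA, fewer cells of a type and less RNA per cell cannot be told apart.

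With 1 library per group there is no replicate check, no p-value was computed and the differences are between libraries. A gene was called higher or lower when its library with more reads held 10 CPM or more and the levels, each with 1 CPM added, differed 2-fold or more. Folds are ratios of CPM with exact binomial 95% intervals, which cover counting error only.

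The whole set was lowest in normal spleen and highest in normal bone marrow. Together the 38 genes took 0.702% of the reads of normal bone marrow (Wilson 95% interval 0.697% to 0.707%), 0.433% of T-ALL bone marrow (0.429% to 0.437%), 0.177% of normal spleen (0.174% to 0.18%) and 0.592% of T-ALL spleen (0.587% to 0.597%). Their summed levels were 6987, 4369, 1777 and 5871 CPM. The median gene was at 108 CPM in normal bone marrow, 65.8 in T-ALL bone marrow, 29.6 in normal spleen and 87.5 in T-ALL spleen. Leukaemia thus went with a lower sum in the marrow and a higher one in the spleen, and the T-ALL libraries lay between the normal ones.

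The order of the libraries was nearly the same for every gene. Normal spleen was lowest for 38 of 38. Normal bone marrow was highest for 30, and T-ALL spleen for the other 8, which were Orc1, Orc6, Mcm4, Prim1, Pold2, Pcna, Rfc4 and Rpa1. In 28 genes the order from high to low was normal bone marrow, T-ALL spleen, T-ALL bone marrow, normal spleen. Gins3 and Rfc2 were the 2 genes with T-ALL bone marrow above T-ALL spleen. Counting error left the top pair of libraries undistinguished for 11 genes (Orc1, Orc6, Cdt1, Mcm4, Gins1, Gins2, Pola2, Prim2, Pold2, Rpa1 and Chaf1b), the middle pair for 6 (Cdc45, Gins3, Pola1, Pole2, Rfc5 and Rrm2), and the bottom pair for Gins3.

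**Figure D1:**
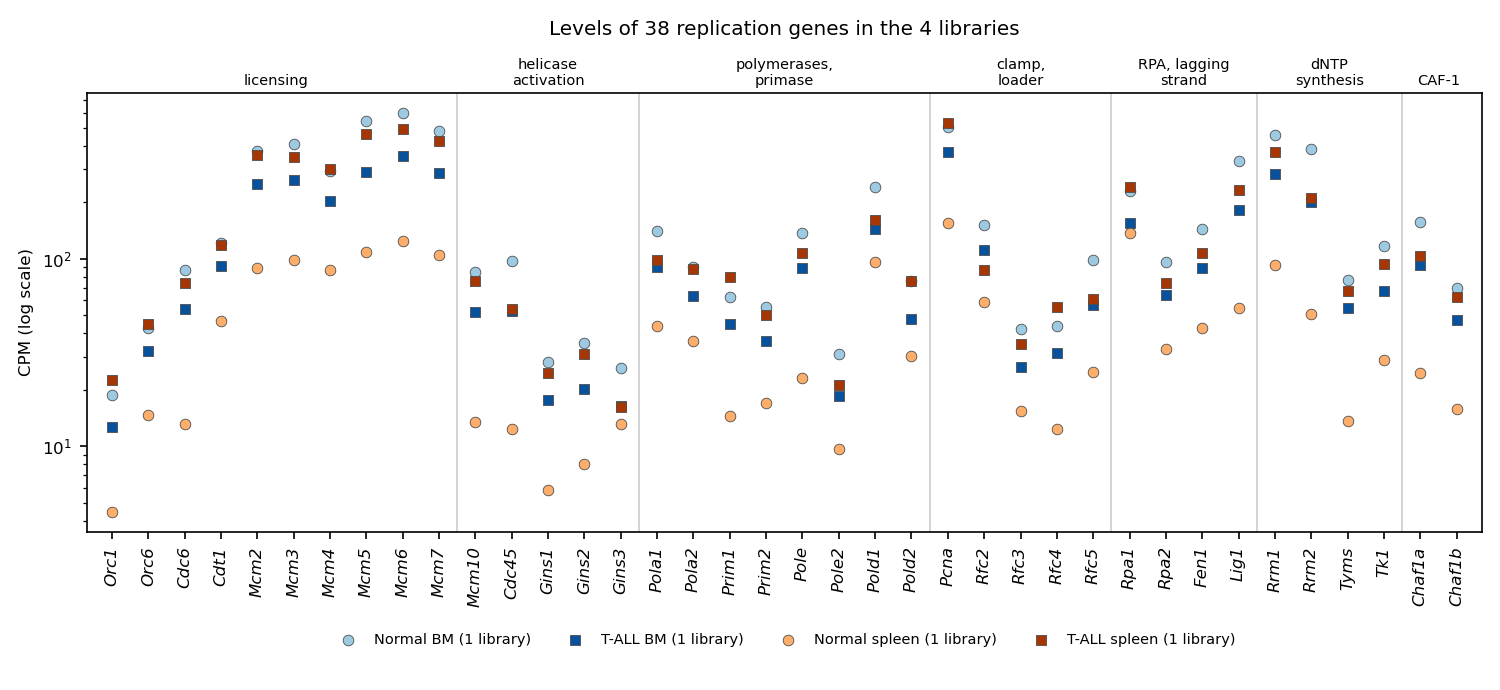
Level of each of the 38 genes in CPM (log scale) in the 4 libraries, with genes grouped by role; each point is 1 library, circles are normal and squares T-ALL, blue is bone marrow and orange spleen. The pale orange circles of normal spleen are the lowest point for all 38 genes, and the pale blue circles of normal bone marrow are the highest for 30.

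In bone marrow, all 38 genes were lower in the T-ALL library, and none reached 2-fold. The T-ALL level was 1.32-fold (Orc6) to 1.93-fold (Rrm2) lower, and every interval lay below a ratio of 1. The median log2 fold was -0.65, against -0.04 over the 9716 genes measured. Of the 38 genes, 0 were called lower and 0 higher, where 1.03% of all measured genes were called lower and 8.01% higher. At a threshold of 1.5-fold, 24 of 38 were lower, against 7.09% of all measured genes.

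In spleen, the T-ALL library was higher for all 38 genes, and 34 rose at least 2-fold. The background was 10.3% of 9774 measured genes called higher and 11.0% called lower (13.5% and 7.7% when TMM scaling left out marker, immunoglobulin and haemoglobin genes), and 0 of the 38 fell. The median log2 fold was 1.82, against -0.08 over all measured genes. The ratio ran from 1.22 (Gins3) to 5.64 (Mcm10). On the log2(CPM + 1) scale of the size rule, 13 of the 38 genes passed 4-fold, against 2.41% of all measured genes. Pole2, at 2.19-fold, was nearest above the threshold and Rpa1, at 1.75-fold, nearest below it. Orc1, Gins1, Gins2 and Pole2 were under 10 CPM in normal spleen and were measured through the T-ALL library.

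**Figure D2:**
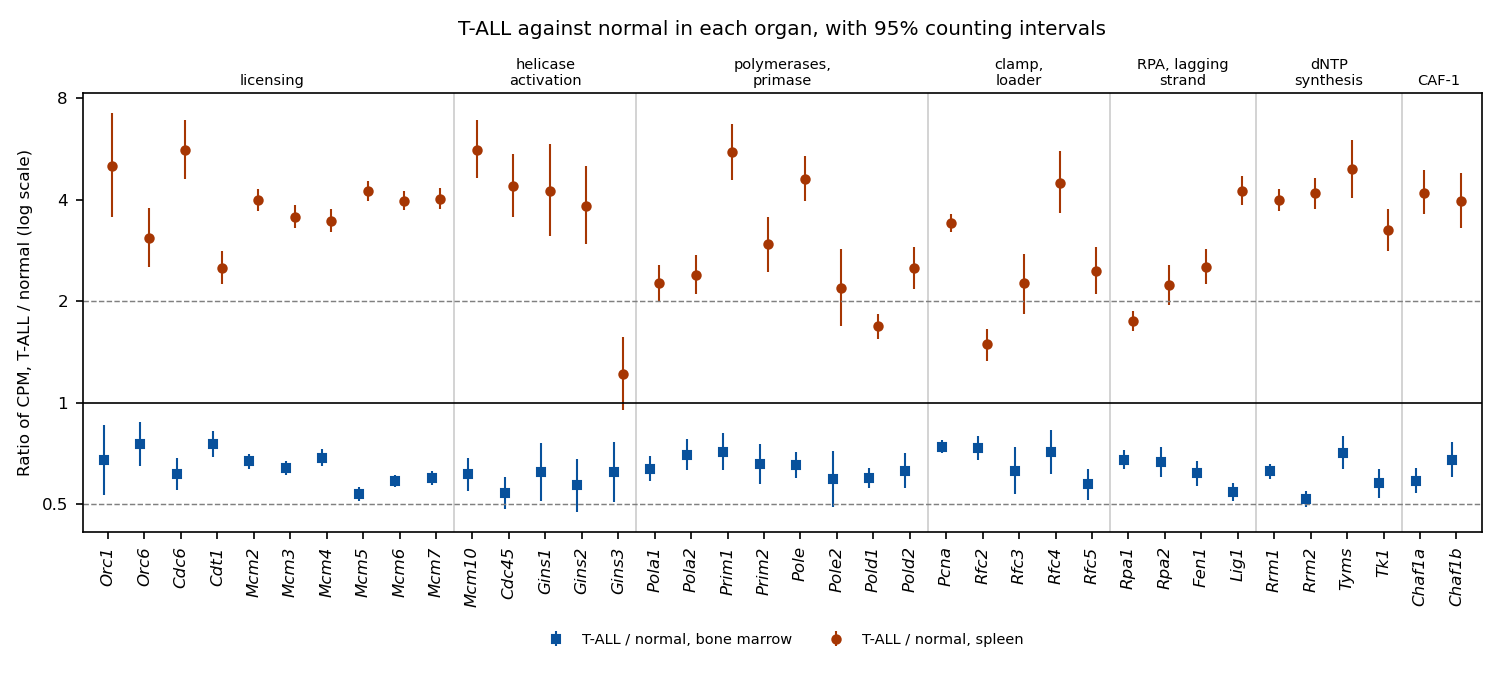
Ratio of CPM, T-ALL over normal, for each gene in bone marrow (blue squares) and spleen (orange circles) on a log axis; bars are exact binomial 95% intervals for counting error, and dashed lines mark 2-fold either way. All 38 bone marrow ratios lie between 0.519 and 0.757, and 34 of the spleen ratios lie above 2.

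Origin licensing genes moved as a block, with 10 of 10 called higher in T-ALL spleen and a median log2 fold of 1.99. Mcm6, a subunit of the ring-shaped replicative helicase, was at 601 CPM in normal bone marrow, 352 in T-ALL bone marrow, 124 in normal spleen and 495 in T-ALL spleen. It rose 3.98-fold in spleen (3.73 to 4.25) and was 1.71-fold lower in T-ALL bone marrow (1.63 to 1.78). Its partner Mcm5 stood at 541, 291, 109 and 462 CPM in the same order of libraries. Mcm5 rose 4.25-fold in spleen (3.96 to 4.56), and its 1.86-fold lower level in T-ALL bone marrow was the lowest ratio among the helicase subunits. Mcm7 was at 480.3, 287, 105 and 424 CPM, Mcm3 at 410.5, 263, 98.3 and 351 CPM. Mcm2 was at 374, 250.4, 89.0 and 356 CPM, with a spleen ratio of 4.0 (3.70 to 4.32). Mcm4 differed in that T-ALL spleen, at 301 CPM, matched normal bone marrow at 295 CPM within counting error, and its other levels were 203 CPM (T-ALL bone marrow) and 86.7 CPM (normal spleen). The spleen ratios of all 6 subunits lay between 3.47 (Mcm4) and 4.25 (Mcm5).

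The 6 helicase subunits enter 1 ring in equal numbers, and their transcript levels per length lay within 2.52-fold of each other in every library. In RPKM (reads per kilobase of gene, scaled to the library total), the highest subunit was 2.52 times the lowest in normal bone marrow, 2.14 times in T-ALL bone marrow, 1.82 times in normal spleen and 2.11 times in T-ALL spleen. Mcm4 was the lowest in all 4 libraries, at 82.7 RPKM in normal bone marrow and 24.0 RPKM in normal spleen. Mcm6 led in both bone marrow libraries and Mcm7 in both spleen libraries.

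The loaders of the helicase showed wider differences. Cdc6, the ATPase that brings the helicase to the origin, was at 87.3 CPM in normal bone marrow, 53.7 in T-ALL bone marrow, 13.2 in normal spleen and 74.2 in T-ALL spleen, a 5.62-fold rise in spleen (4.62 to 6.89). Cdt1, its partner, was at 122, 92.1, 46.6 and 118 CPM and rose 2.52-fold (2.25 to 2.83). The highest Cdt1 levels, those of normal bone marrow and T-ALL spleen, were not separated by counting error. Gmnn encodes geminin, which binds and blocks Cdt1 outside G1. Per length, Cdt1 was 0.903 times Gmnn in normal bone marrow, 0.993 times in T-ALL bone marrow, 1.37 times in normal spleen and 1.11 times in T-ALL spleen. Orc1, the cell-cycle-regulated subunit of the origin recognition complex, was at 18.7, 12.7, 4.47 and 22.5 CPM (normal bone marrow, T-ALL bone marrow, normal spleen, T-ALL spleen). Orc6, the smallest subunit, was at 42.8, 32.4, 14.7 and 45.1 CPM. Both were highest in T-ALL spleen, by less than counting error, and rose 5.03-fold (3.57 to 7.25) and 3.08-fold (2.53 to 3.78) in spleen.

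Of the 5 genes that activate the helicase, 4 rose in T-ALL spleen, and Gins3 did not. Mcm10, which stabilises the active helicase, was at 84.9 CPM in normal bone marrow, 52.0 in T-ALL bone marrow, 13.5 in normal spleen and 76.3 in T-ALL spleen. Its spleen ratio of 5.64 (4.64 to 6.90) was the highest of the 38 genes. Cdc45, a part of the active helicase itself, was at 97.0, 52.4, 12.3 and 54.1 CPM. The T-ALL levels of Cdc45 in the 2 organs differed by a ratio of 1.03 (0.911 to 1.17), while its normal levels differed 7.88-fold (6.47 to 9.69), the widest organ difference among the 38 genes.

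The GINS genes encode subunits of a single complex but differed in spleen. Gins1 was at 28.2, 17.6, 5.82 and 24.7 CPM and Gins2 at 35.4, 20.2, 8.05 and 30.9 CPM in normal bone marrow, T-ALL bone marrow, normal spleen and T-ALL spleen, rising 4.24-fold (3.13 to 5.85) and 3.83-fold (2.95 to 5.03). Gins3 was at 26.3, 16.4, 13.2 and 16.1 CPM. The spleen ratio of Gins3 was 1.22 (0.953 to 1.57), the only one of the 38 whose interval held 1, and its 3 lower libraries lay close together. Its bone marrow ratio of 0.625 (0.508 to 0.766) was like that of Gins1, 0.624 (0.511 to 0.76). The Gins3 promoter was among the 8 with an E2F word, 41 bases before the start. In GENCODE gene models of GRCm38, 67.3% of the exon bases of Gins2 also belonged to exons of Gse1. That model has 4097 exon bases, against a Gins2 length of 1061 bases in the counts. How much of the counted length is shared is not known, and the strand setting of the counts is not given. Whether reads of the pair were mixed therefore cannot be told.

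Among polymerase and primase genes, 7 of 8 rose in T-ALL spleen, with a median log2 fold of 1.27. Prim1, the catalytic subunit of the primase that starts each new strand with RNA, was at 62.7 CPM in normal bone marrow, 45.0 in T-ALL bone marrow, 14.5 in normal spleen and 80.4 in T-ALL spleen. T-ALL spleen was the highest library, and the ratio was 5.53 (4.59 to 6.72) against normal spleen and 1.79 (1.58 to 2.02) against T-ALL bone marrow, the highest ratio of the 38 between the leukaemic organs. Prim2, the other primase subunit, was at 55.3, 36.5, 17.0 and 50.1 CPM and rose 2.95-fold (2.45 to 3.56). Polymerase alpha, which extends the primers, rose less, with Pola1 at 141, 90.1, 43.6 and 98.8 CPM (2.27-fold, 2.01 to 2.56) and Pola2 at 90.0, 63.2, 36.5 and 87.7 CPM (2.40-fold, 2.11 to 2.74). The RPKM of Prim1 relative to Pola1 was accordingly 1.16 in normal spleen and 2.84 in T-ALL spleen, and 1.55 and 1.74 in normal and T-ALL bone marrow.

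Polymerase epsilon, which copies the leading strand, and polymerase delta, which copies the lagging strand, also differed between subunits. Pole, the catalytic subunit of epsilon, was at 137, 89.5, 23.2 and 107 CPM in normal bone marrow, T-ALL bone marrow, normal spleen and T-ALL spleen and rose 4.61-fold in spleen (3.97 to 5.39). Pole2, its accessory subunit, was at 31.2, 18.6, 9.73 and 21.3 CPM and rose 2.19-fold (1.69 to 2.85). Per length, Pole was 0.563 times Pole2 in normal spleen and 1.03 to 1.18 times in the other 3 libraries. Pold1, the catalytic subunit of delta, was at 241, 144, 95.6 and 162 CPM. Its spleen ratio, 1.69 (1.55 to 1.84), stayed under 2-fold. Pold2, at 76.1, 47.9, 30.4 and 76.5 CPM, rose 2.52-fold (2.18 to 2.90) to the level of normal bone marrow.

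The sliding clamp gene Pcna had the highest level per length of the 38 genes in each library, from 123 RPKM in normal spleen to 426 in T-ALL spleen. In CPM it was at 504 in normal bone marrow, 373 in T-ALL bone marrow, 156 in normal spleen and 533 in T-ALL spleen, and it rose 3.42-fold in spleen (3.22 to 3.63). The genes of the clamp loader were less uniform. Rfc4 was at 44.0, 31.6, 12.3 and 55.2 CPM and rose 4.49-fold (3.65 to 5.57), with T-ALL spleen as its highest library. Rfc3 (42.3, 26.6, 15.5 and 35.1 CPM) and Rfc5 (98.8, 56.7, 24.8 and 61.2 CPM) rose 2.26-fold (1.84 to 2.77) and 2.46-fold (2.11 to 2.89). Rfc2 was at 151, 111, 58.7 and 87.3 CPM, with a spleen ratio of 1.49 (1.33 to 1.66). It was the 1 gene of the 38 whose T-ALL spleen level lay below T-ALL bone marrow beyond counting error, 1.27-fold lower (1.15 to 1.39).

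Of the genes for single-strand binding and lagging-strand joining, 3 of 4 rose in T-ALL spleen. Lig1, the DNA ligase that seals Okazaki fragments, was at 334 CPM in normal bone marrow, 182 in T-ALL bone marrow, 54.8 in normal spleen and 233 in T-ALL spleen. It rose 4.25-fold in spleen (3.85 to 4.70) and was 1.84-fold lower in T-ALL bone marrow (1.73 to 1.95). Fen1, the nuclease that trims fragment flaps, was at 145, 89.4, 42.8 and 108 CPM and rose 2.53-fold (2.25 to 2.86); 84.2% of its exon bases lay in exons of other gene models, Tmem258 among them. Rpa1 and Rpa2 encode the large and middle subunits of the protein that coats single-stranded DNA in replication and in repair. Rpa1, at 230.3, 156, 138 and 242 CPM, had a spleen ratio of 1.75 (1.63 to 1.87) and differed least between the normal organs, at 1.67-fold lower in spleen (1.55 to 1.79). Rpa2, at 95.8, 64.1, 33.2 and 74.2 CPM, rose 2.23-fold (1.95 to 2.57).

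All 4 genes of deoxynucleotide synthesis rose in T-ALL spleen, with the highest median log2 fold of the 7 roles, 2.02. Rrm2, the S-phase subunit of ribonucleotide reductase, was at 387 CPM in normal bone marrow, 201 in T-ALL bone marrow, 50.7 in normal spleen and 212 in T-ALL spleen. Normal bone marrow stood above the rest, and the T-ALL libraries did not differ beyond counting error, with a ratio of 1.05 (0.989 to 1.12). Rrm2 rose 4.18-fold in spleen (3.77 to 4.64), and its 1.93-fold lower level in T-ALL bone marrow (1.82 to 2.04) was the nearest to 2-fold of the 38. Rrm1, the large subunit, was at 455, 285, 92.7 and 371 CPM and rose 4.0-fold (3.71 to 4.32). Per length, Rrm2 was 1.55 times Rrm1 in normal bone marrow, 1.28 times in T-ALL bone marrow, 0.993 times in normal spleen and 1.04 times in T-ALL spleen. Tyms, which makes thymidylate, was at 76.9, 54.7, 13.6 and 67.3 CPM and rose 4.93-fold (4.06 to 6.04). Tk1, the S-phase thymidine kinase of the salvage route, was at 117, 67.6, 28.7 and 93.4 CPM and rose 3.25-fold (2.82 to 3.75).

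The nucleosome-depositing subunits Chaf1a and Chaf1b both rose in T-ALL spleen. Chaf1a was at 158, 92.9, 24.5 and 103 CPM in normal bone marrow, T-ALL bone marrow, normal spleen and T-ALL spleen (4.20-fold in spleen, 3.62 to 4.89), and Chaf1b at 69.9, 47.4, 15.8 and 62.6 CPM (3.97-fold, 3.29 to 4.80). In Chaf1a, 52.5% of the 8854 exon bases of the GENCODE model overlapped exons of Ubxn6, while the length in the counts was 3308 bases. Fen1, Gins2 and Chaf1a were the 3 members with over 50% of exon bases shared. In all, 12 members had over 5% shared, among them Rfc2, with 15.1% shared with Lat2.

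No library is shared between the T-ALL comparison in bone marrow and that in spleen. The spleen ratio divided by the bone marrow ratio ran from 1.96 (Gins3, 1.43 to 2.68) to 9.20 (Mcm10, 7.36 to 11.5). For 37 of 38 genes the spleen ratio was above 1 and the bone marrow ratio below 1, both beyond counting error, with Gins3 as the exception. The share of all measured genes with this pattern was not counted, so how unusual it is cannot be told. Across the 38 genes the log2 folds in the 2 organs had a Pearson r of -0.17 and a Spearman rho of -0.14, given as a description, since genes of 1 library are not independent. The spleen folds spread much more than the bone marrow folds. Between roles the median log2 fold in spleen ran from 1.23 (single-strand binding and lagging strand) to 2.02 (deoxynucleotide synthesis), and in bone marrow from -0.73 (deoxynucleotide synthesis) to -0.47 (clamp and loader). The 8 members with an E2F word had a median spleen log2 fold of 1.99 (0.27 to 2.40), and the 24 without, 1.79 (0.75 to 2.41).

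The organ comparisons use the same libraries and add the levels from which leukaemia departed. In normal mice, 36 of 38 genes fell at least 2-fold from bone marrow to spleen, where 14.0% of 10072 measured genes were called lower and 16.1% higher, with a median log2 fold of -1.97. At 4-fold, 18 were lower, against 5.81% of all measured genes. The exceptions at 2-fold were Gins3 (1.99-fold lower, 1.60 to 2.50) and Rpa1. After Cdc45, the widest differences were those of Rrm2 (7.64-fold lower, 6.93 to 8.44), Cdc6 (6.61-fold) and Chaf1a (6.45-fold). In T-ALL mice none of the 38 was called, where 5.44% of 9852 measured genes were called higher and 11.0% lower. The ratio of T-ALL spleen to T-ALL bone marrow ran from 0.789 (Rfc2) to 1.79 (Prim1), with a median log2 fold of 0.43, and 31 genes were above 1 beyond counting error.

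The other genes of the pathway, taken from lists that hold none of the 38, showed which neighbours moved with them. Of 36 other replication factors, 15 rose and 1 fell in T-ALL spleen, with a median log2 fold of 0.92, and 0 were called in bone marrow (median -0.40). Ticrr, which recruits Cdc45, was at 79.3 CPM in normal bone marrow, 55.1 in T-ALL bone marrow, 10.5 in normal spleen and 57.2 in T-ALL spleen and rose 5.44-fold in spleen (4.36 to 6.84). The helicase Recql4 rose 5.25-fold and the checkpoint mediator Clspn 4.45-fold. Ssrp1, a subunit of the histone chaperone FACT, had ratios of 0.656 in bone marrow and 1.89 in spleen. The gene that fell was Pold4, the small subunit of polymerase delta, at 28.7, 37.7, 82.0 and 35.7 CPM, 2.30-fold lower in T-ALL spleen (2.01 to 2.62). Pold4 was thus highest in the library in which Pold1 and Pold2 were lowest.

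Of 27 other genes of nucleotide synthesis and salvage, 19 rose and 2 fell in T-ALL spleen (median log2 fold 1.30), and 0 were called in bone marrow (median -0.41). Dut, which removes dUTP, was at 162, 121, 33.1 and 265 CPM in normal bone marrow, T-ALL bone marrow, normal spleen and T-ALL spleen and rose 8.01-fold (7.09 to 9.06). The serine hydroxymethyltransferases, which charge folate with the carbon used for thymidylate and purines, rose 8.32-fold (Shmt1, 6.61 to 10.6) and 5.40-fold (Shmt2, 4.95 to 5.89). Cad, which starts pyrimidine synthesis, was at 267, 169, 97.5 and 399 CPM. T-ALL spleen was the highest library for these 4 genes.

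The 2 that fell were Rrm2b and Tk2, the reductase subunit and thymidine kinase that serve cells outside S phase. Rrm2b was at 28.2 CPM in normal bone marrow, 32.4 in T-ALL bone marrow, 42.8 in normal spleen and 20.2 in T-ALL spleen, 2.12-fold lower in T-ALL spleen (1.77 to 2.53). Tk2 was at 32.7, 53.4, 104 and 42.7 CPM, 2.43-fold lower (2.16 to 2.74). Both were highest in normal spleen, the library in which their S-phase counterparts were lowest. Per length, Rrm2 was 28.3 times Rrm2b in normal bone marrow, 12.8 times in T-ALL bone marrow, 2.44 times in normal spleen and 21.6 times in T-ALL spleen. Tk1 was 6.19, 2.19, 0.479 and 3.78 times Tk2 in the same order. Normal spleen was the only library in which Tk2 exceeded Tk1.

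Of the 6 measured genes that break down deoxynucleotides and nucleosides, 2 rose and 1 fell in T-ALL bone marrow, and 2 fell in T-ALL spleen. Samhd1, the hydrolase that lowers the deoxynucleotide pool of resting myeloid cells, was at 210.1 CPM in normal bone marrow, 669.8 in T-ALL bone marrow, 911 in normal spleen and 325 in T-ALL spleen. Its order was the reverse of that of Rrm1, Rrm2, Tyms and Tk1. It rose 3.19-fold in bone marrow (3.03 to 3.35) and was 2.81-fold lower in T-ALL spleen (2.69 to 2.93). Xdh, the purine-degrading xanthine dehydrogenase, was at 109, 339, 107 and 52.5 CPM, 3.12-fold higher in T-ALL bone marrow and 2.05-fold lower in T-ALL spleen. Ada, adenosine deaminase, was 2.07-fold lower in T-ALL bone marrow (1.78 to 2.41).

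**Figure D3:**
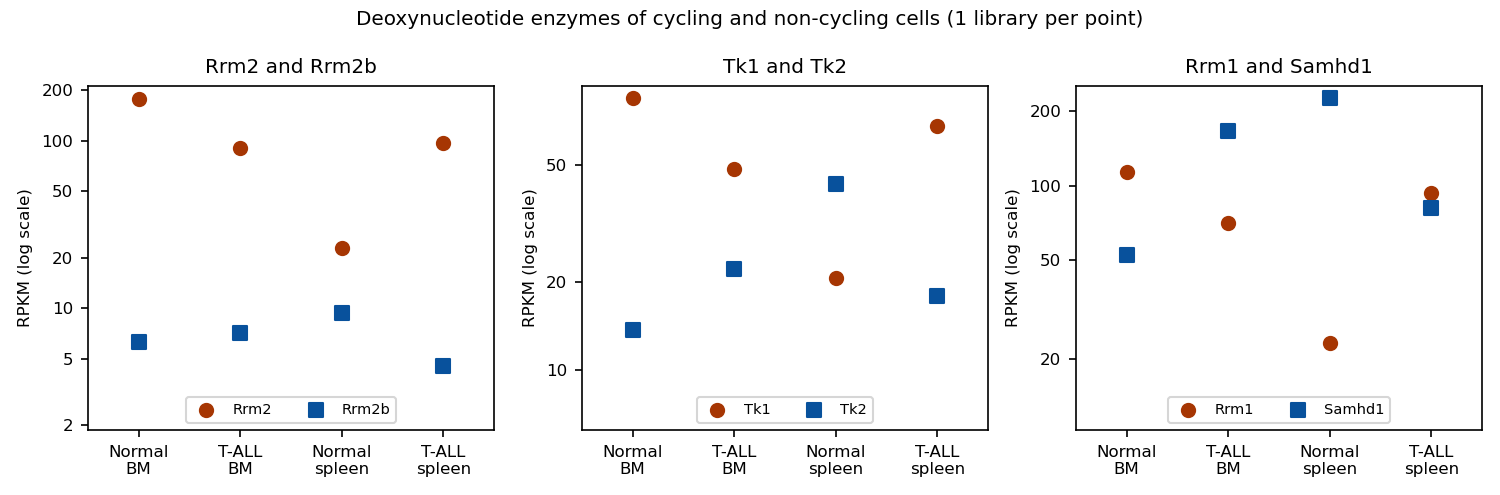
RPKM (log scale) of Rrm2 and Rrm2b, of Tk1 and Tk2, and of Rrm1 and Samhd1 in the 4 libraries; each point is 1 library. Orange circles (synthesis in S phase) are lowest in normal spleen, where the blue squares are highest; Tk2 at 43.0 RPKM exceeds Tk1 at 20.6 RPKM only there.

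G1/S regulators followed the replication genes in part. In T-ALL spleen 9 of 16 measured rose and 1 fell (median log2 fold 1.05), and in T-ALL bone marrow 1 of 18 fell (median -0.59). Tfdp1, the partner of E2F factors, was at 363, 222, 50.6 and 206 CPM in normal bone marrow, T-ALL bone marrow, normal spleen and T-ALL spleen and rose 4.08-fold (3.68 to 4.53). The D-cyclin kinase Cdk6 rose 5.86-fold (4.57 to 7.60), with 8.28 CPM in normal spleen. Ccnd1, cyclin D1, went the other way, at 23.4, 34.8, 395 and 73.0 CPM, 5.42-fold lower in T-ALL spleen (4.99 to 5.89). Ccne2, an S-phase cyclin, fell in bone marrow from 32.5 to 12.9 CPM (2.52-fold lower, 2.04 to 3.14). Per length, Ccne1 was 1.61 times Ccne2 in normal bone marrow and 3.04 to 9.15 times in the other 3 libraries.

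Among 9 measured cell cycle brakes, 3 rose in T-ALL bone marrow and 0 were called in T-ALL spleen, where the median log2 fold was -0.60. The antiproliferative genes Btg2 and Btg1 rose 4.39-fold (4.08 to 4.72) and 3.41-fold (3.24 to 3.59) in bone marrow, and Cdkn1a, the p21 inhibitor, 2.24-fold (1.90 to 2.65). In spleen Btg1 was at 1141 CPM in the normal and 687 CPM in the T-ALL library.

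Mitosis and replication-linked repair genes moved with the 38. Of 28 mitosis genes, 26 rose in T-ALL spleen (median log2 fold 1.90) and 0 were called in bone marrow, where all 28 were lower (median -0.67). Cdk1, the mitotic kinase, was at 137, 87.0, 18.3 and 125 CPM in normal bone marrow, T-ALL bone marrow, normal spleen and T-ALL spleen and rose 6.79-fold (5.76 to 8.05). Ccnb1, cyclin B1, rose 5.91-fold and Top2a, the topoisomerase that untangles sister chromatids, 5.06-fold, from 145 to 734 CPM. Of 19 repair and methylation genes, 16 rose in T-ALL spleen (median 1.60) and 0 were called in bone marrow (median -0.58). Chek1, the checkpoint kinase of stalled forks, rose 8.16-fold (5.91 to 11.5), Uhrf1 5.03-fold and Rad51ap1 5.41-fold. Dnmt1, which copies DNA methylation behind the fork, was at 679.7, 435, 149.7 and 589 CPM.

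**Figure D4:**
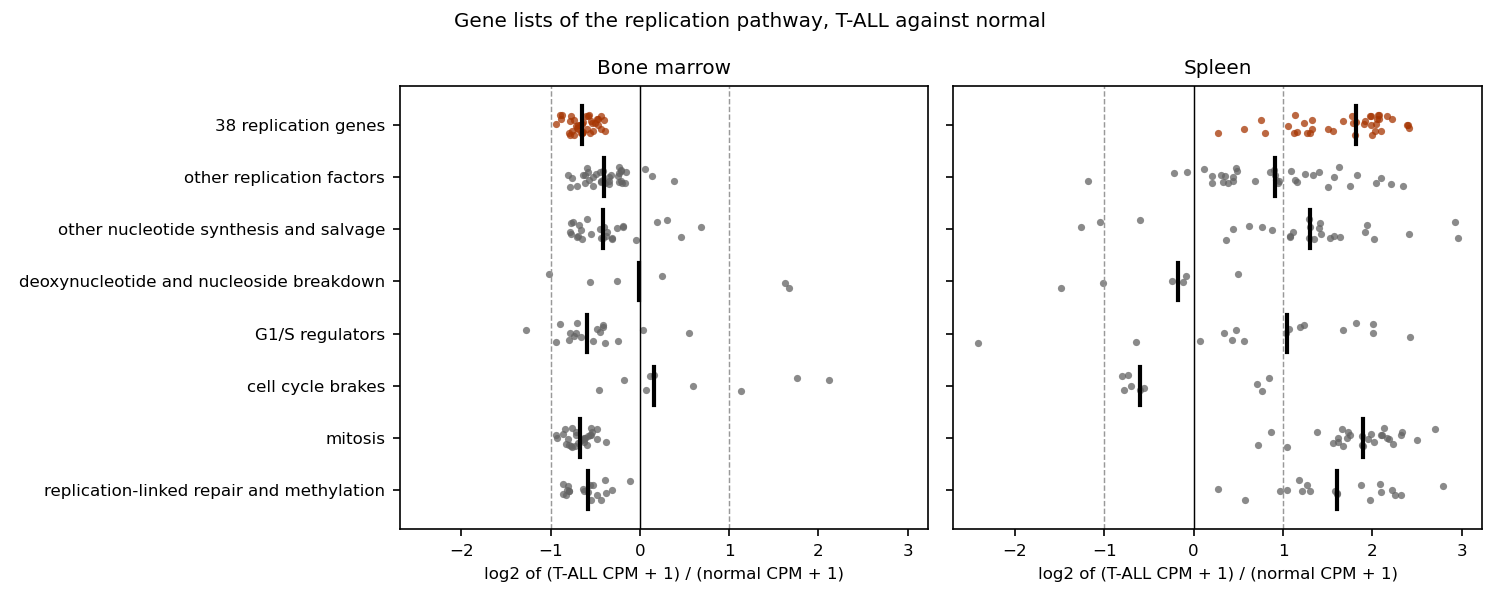
Log2 of T-ALL over normal, on CPM + 1, for the genes of each list measured at 10 CPM or more, in bone marrow (left) and spleen (right); each point is a gene, black bars are list medians and dashed lines mark 2-fold. The 38 replication genes (orange) have medians of -0.65 and 1.82; mitosis genes have -0.67 and 1.90, and cell cycle brakes 0.16 and -0.60.

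Markers of other cells differed in both directions between the T-ALL and normal libraries of each organ. Some lists went the same way as the replication genes and others the opposite way. In T-ALL spleen, 10 of 14 T cell markers rose and 1 (Cd8a) fell, and 9 of 10 measured thymocyte and T-ALL markers rose, with sums of 533 CPM in normal and 1788 CPM in T-ALL spleen. In T-ALL spleen, Tcf7 was at 904 CPM and Dtx1 at 452 CPM. Dtx1 was already at 320.5 CPM in normal spleen and was the only measured marker of its list not called higher. Rag2 was at 0 in normal spleen and under 10 CPM in T-ALL spleen. Over the same comparison, 5 of 10 macrophage markers fell and 0 rose, from a sum of 5528 to 2869 CPM, with Csf1r at 1421 CPM in T-ALL spleen. Of red pulp and island macrophage markers, 5 of 10 fell and 1 rose. Among measured markers, 5 of 6 for neutrophil precursors and 4 of 8 for B cells fell there. So did 6 of 7 for dendritic cells and 6 of 7 for NK cells, with 0 called higher in each of these lists. Of the 10 housekeeping genes, Gapdh (2.91-fold) and Ppia (2.18-fold) rose in T-ALL spleen.

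In T-ALL bone marrow, 7 of 11 neutrophil precursor markers fell and 0 of 10 housekeeping genes were called. Of macrophage markers, 9 of 10 rose (3552 to 8179 CPM), and of red pulp and island macrophage markers, 10 of 10 rose. While all 38 genes were lower in that library, 12 of 12 measured T cell markers rose. Of 10 measured thymocyte and T-ALL markers, 6 rose and 0 fell. The neutrophil precursor marker Ngp was at 6986 CPM there and the macrophage marker Lyz2 at 5494 CPM. Of 6 measured mature neutrophil markers, 2 (Retnlg and Mmp8) rose and 0 fell in T-ALL bone marrow, with sums of 15567 CPM in normal and 13480 CPM in T-ALL bone marrow, and S100a9 was at 7726 CPM in the latter. Blood progenitor markers summed to 1109 CPM in normal bone marrow, 809 in T-ALL bone marrow, 354 in normal spleen and 210 in T-ALL spleen. Erythroid precursor markers, another dividing lineage, summed to 654, 719, 451 and 565 CPM. In spleen, Tfrc went from 119.9 to 291 CPM and was the only 1 of 10 measured markers of this list called higher, while 2 were called lower. None of the neutrophil precursor, T cell or macrophage markers was at 0 in any library. The part of these cells in the levels of the 38 genes was not tested.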

How the data were processed

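RNA of sorted macrophages was sequenced in 4 libraries, 1 per group, with groups taken from the sample titles. Each deposited table gives, per the file headers, counts of uniquely mapped reads per gene, gene length, coverage as a percent and RPKM. The deposited counts are whole numbers and were used as such, with a gene without a line set to 0. The RPKM deposited by the authors was recomputed from counts, length and total within 9.15e-06%. The deposited coverage percent was not analysed. For aligner, counting rule, strand setting and genome build, the sources used here give nothing.

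CPM was computed on TMM-scaled library sizes (edgeR 4.0.16, R 4.3.3; factors 0.991 to 1.01). Log2 folds used a pseudocount of 1 CPM, which understates changes of low genes. The size rule, a 2-fold difference where the larger level is at least 10 CPM, was tested on simulated counts that held counting noise only. Reads copied by PCR are not independent, so intervals can be too narrow. The interval of a ratio of folds was computed on the log scale from 4 counts. Levels were compared between genes in RPKM. CPM of marker genes is compared between libraries. Within a library it is not corrected for length and served only for sums, the share of Lyz2 and the choice of named genes.

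The 38 genes and all lists were chosen with earlier results of these data known. Named genes are the 38, and in each pathway list, per T-ALL comparison, the 3 with the largest log2 fold past the size rule, or, where none passed, the gene with the highest CPM in any of the 4 libraries; in the marker lists described, genes with the highest CPM in a T-ALL library or at 0. Pold4, Rrm2b, Tk2, Gmnn, Ccne1, Gapdh, Ppia, Cd8a and the sex-linked genes are named outside that rule, Gmnn and Ccne1 for the ratios they enter. Exon overlaps come from GENCODE models and promoters from RefSeq, both on GRCm38. Scaling, pseudocount, minimum, unit, threshold and promoter window were varied. Tables and intervals were computed with scipy 1.17.1 and pandas 2.3.3 under Python 3.11.15, and figures drawn with matplotlib 3.10.9.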

Additional observations from a re-analysis of the deposited data

Results flagged for a closer look

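The leukaemia difference had opposite signs in the 2 organs for 37 of the 38 genes, higher in T-ALL spleen and lower in T-ALL bone marrow with counting intervals that leave out 1. The share of all measured genes with this pattern was not counted. The difference between the organs was not tested, since each group is 1 library. Samhd1 went the other way, with log2 folds of 1.67 in bone marrow and -1.49 in spleen, and so did Xdh, with 1.63 and -1.02. These were not tested either.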

How the results depend on the processing

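No paired analysis was possible because each group has 1 library, and for the same reason no replicate could be left out. Across 3 other scalings, 2 pseudocounts, 2 minimums, the deposited RPKM and thresholds of 1.5-fold and 4-fold, the members' medians kept their sign in all 4 comparisons. With TMM scaling that left out marker, immunoglobulin and haemoglobin genes, the median of all measured genes in spleen was 0.10 in place of -0.08 and that of the members 1.98 in place of 1.82. A pseudocount of 5 CPM gave a spleen median of 1.62 and a normal organ median of -1.69. At 1.5-fold, 24 members were lower in T-ALL bone marrow and 7 higher in T-ALL spleen than in T-ALL bone marrow (background 14.1%). At 4-fold, 13 were higher in T-ALL spleen (background 2.41%) and 18 lower in normal spleen than in normal bone marrow (background 5.81%). Gins3 between the T-ALL organs was -0.02 (log2), 0.03 with median-of-ratios scaling and 0.06 with the reduced TMM scaling. In the last 100 bases before the start, 10.8% of member promoters held an E2F word, against 0.846% of all promoters of the table and 1.49% of those of genes at 10 CPM or more. Depth limits Orc1, Gins1, Gins2 and Pole2 most, which were under 10 CPM in normal spleen.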
